A study of Mus musculus with 16 samples.

Results

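The 10 endothelial genes Pecam1, Cdh5, Kdr, Flt1, Tek, Emcn, Ehd3, Plvap, Nos3 and Sox17 were followed in whole-kidney RNA from diabetic and non-diabetic mice with and without vitamin B12. They were taken by symbol from the 57186 genes of the count table, each symbol matched 1 row, and all 10 passed the filter of at least 100 counts over the 16 libraries, as did 25408 genes in all. The libraries came from 16 male mice, and the labels place 4 in each of 4 groups. Non-diabetic Elmo1H/H Ins2+/+ mice were left untreated (ND_C) or given B12 (ND_B12), and diabetic Elmo1H/H Ins2Akita/+ mice were left untreated (D_C) or given B12 (D_B12). Treated mice drank water with B12 (10 mg/kg daily) starting when they were 8 weeks old, and kidneys were collected at 16 weeks of age. These ages allow the 8 weeks of treatment that the methods of the study state, while the labels give 16 weeks. Every mouse, controls included, was Elmo1H/H, a genotype with raised expression of Elmo1, an adaptor of Rac signaling in cell movement. Ins2Akita is an insulin variant whose misfolded product leaves mice hyperglycemic.

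Endothelial cells line every vessel of the kidney, from fenestrated glomerular capillaries to arteries, peritubular capillaries and veins. Vascular endothelial growth factor (VEGF), which podocytes and tubules secrete, acts through the receptor Kdr and is bound and held back by Flt1, while angiopoietins act through Tek. Diabetes is known to disturb this signaling and the nitric oxide made by Nos3 in the glomerulus.

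The 16 libraries held between 65271308 and 91771136 counts. Each D_C total, from 85751266 to 91771136, exceeded each ND_C total, from 72867148 to 84053153, and values below are scaled for depth. Elmo1 itself lay between 286 and 497 normalised counts in the 16 libraries, with overlapping ranges in the 4 groups, and the Ins2 genotype has no readout in kidney RNA. The labels were also set against the group means that the study tabulates, over 175 genes. The means tabulated for untreated diabetic mice matched the 4 libraries labelled D_B12, and those tabulated for B12-treated diabetic mice matched D_C 2, D_C 3, D_C 4 and ND_B12 4. The means tabulated for untreated non-diabetic mice matched ND_C 1, ND_C 2, ND_C 4 and ND_B12 1, and those for B12-treated non-diabetic mice matched ND_C 3, ND_B12 2, ND_B12 3 and D_C 1. Label and table thus put 5 libraries in the same group and 11 in another. Every group and direction below is that of the labels, and which source is right was not settled, so "diabetic untreated" means the libraries so labelled. Label dates follow the groups as well. No date holds both a D_C and an ND_C library, both a D_C and a D_B12 library, or both a D_B12 and an ND_B12 library. In these comparisons, date and group cannot be told apart within a date, and a fit with the date as a term is given beside each.

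Flt1 makes a receptor that spans the membrane and a shorter, soluble form that binds VEGF outside the cell, and the boundary between them is shown because both forms could be counted. Both annotated transcripts use exon 13, at chr5:147576035-147576343 up to its splice donor (GRCm39, minus strand). In Flt1-202, which has 30 exons, exon 13 is spliced to exon 14 at chr5:147571187-147571333. In Flt1-203, which has 13 exons, the reading frame runs on into the intron and meets a stop codon after 95 bases, the stop included. In the first line the last 60 bases of exon 13 are followed by that stretch (chr5:147575940-147576094), with the unused GT splice donor and the stop codon in capitals. In the second line the same 60 bases are followed by the first 60 bases of exon 14, in capitals (chr5:147571274-147571333).
Flt1-203 (soluble): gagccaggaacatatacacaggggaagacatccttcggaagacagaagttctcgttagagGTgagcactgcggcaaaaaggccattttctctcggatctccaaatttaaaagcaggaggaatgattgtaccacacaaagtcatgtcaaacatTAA
Flt1-202 (membrane): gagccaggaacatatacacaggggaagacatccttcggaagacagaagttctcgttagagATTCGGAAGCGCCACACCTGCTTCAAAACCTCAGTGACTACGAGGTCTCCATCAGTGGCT

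The promoters of the receptor genes are shown because these genes are read together below. Of the 10 genes, Emcn, Tek, Kdr, Flt1 and Ehd3 have an entry in the RefSeq promoter table (GRCm38.p6), and Pecam1, Cdh5, Plvap, Nos3 and Sox17 do not. Capitals mark 3 words bound by ETS factors, the family that includes the endothelial regulators Erg and Fli1, on either strand. The first word searched was CAGGAA, the next was CCGGAA, and the last was AGGAAG, which can overlap the first by 5 bases. Each line holds the 250 bases before the start, so that no transcribed base is included: Flt1 from chr5:147726012-147726261 (minus strand), Kdr from chr5:75978456-75978705 (minus strand) and Tek from chr4:94739039-94739288 (plus strand), all in that older build.
Flt1: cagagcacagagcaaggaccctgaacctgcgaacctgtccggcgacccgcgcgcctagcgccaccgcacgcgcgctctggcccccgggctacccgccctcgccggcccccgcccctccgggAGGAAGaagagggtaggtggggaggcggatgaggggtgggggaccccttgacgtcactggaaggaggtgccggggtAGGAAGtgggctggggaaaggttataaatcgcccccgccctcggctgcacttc
Kdr: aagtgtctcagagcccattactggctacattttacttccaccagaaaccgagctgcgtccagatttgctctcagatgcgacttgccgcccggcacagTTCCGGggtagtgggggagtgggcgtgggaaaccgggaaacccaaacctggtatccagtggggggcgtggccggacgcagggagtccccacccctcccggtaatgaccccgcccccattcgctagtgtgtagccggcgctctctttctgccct
Tek: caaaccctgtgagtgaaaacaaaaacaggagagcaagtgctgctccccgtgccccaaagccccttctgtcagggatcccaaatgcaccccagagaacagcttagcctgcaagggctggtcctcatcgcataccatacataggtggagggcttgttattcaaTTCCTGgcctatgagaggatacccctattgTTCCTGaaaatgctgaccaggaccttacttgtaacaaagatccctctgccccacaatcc

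Flt1 held AGGAAG in both of its marked places, Kdr held CCGGAA in 1 and Tek held CAGGAA in 2, while Emcn held 4 matches and Ehd3 none. At least 1 of the 3 words occurred in 4 of the 5 windows and in 48.8% of the 32851 windows of the same length in the table. The single words occurred in 25.7% (CAGGAA), 12.0% (CCGGAA) and 29.5% (AGGAAG) of these windows.

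Scaled by transcript length and by library total, Plvap was the most abundant of the 10 genes, with 53.9 ± 9.33 CPM (counts scaled to library size) per kilobase of transcript (SD over 16 libraries). Emcn followed with 22.0 ± 2.65, Kdr with 16.6 ± 1.82, Pecam1 with 15.9 ± 2.20 and Flt1 with 15.1 ± 1.64. Lower levels were found for Cdh5 (10.7 ± 1.85), Ehd3 (9.42 ± 1.18), Tek (9.26 ± 1.05), Sox17 (3.04 ± 0.563) and Nos3 (1.82 ± 0.351). Plvap lay above Emcn, Emcn above Kdr, Flt1 above Cdh5, Tek above Sox17 and Sox17 above Nos3 in each of the 16 libraries. Neighbors within the spread were Kdr and Pecam1, with Kdr higher in 11 of 16 libraries, Pecam1 and Flt1, with Pecam1 higher in 11, Cdh5 and Ehd3, with Cdh5 higher in 13, and Ehd3 and Tek, with Ehd3 higher in 8. All 10 markers were present in every library.

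The first question was how diabetes changed these genes in untreated kidneys. All 10 had a higher fitted level in D_C than in ND_C, by 1.15-fold to 1.40-fold, with a median log2 fold change of 0.35 against -0.00 over all genes tested. Flt1 rose, and it was the 1 gene of the 10 that passed an adjusted p of 0.05 in edgeR's quasi-likelihood test, where 0.937% of all genes tested passed as higher. DESeq2 called 7 of the 10 and 6.44% of all genes, while edgeR called 0 of the 10 with the replicate number as a block, with the compared groups alone or with genes of at least 1 count. The other 9 had adjusted p-values from 0.0511 to 0.202. All 10 had an unadjusted p below 0.05 in the same test, where 9.31% of all genes tested did so in that direction, and 49.3% of all genes had a value above 0. The D_C and ND_C libraries did not overlap for 5 of the 10 (Sox17, Tek, Kdr, Flt1 and Cdh5), against 4.86% of all genes. In RNA from whole kidney, a change in the number of endothelial cells and a change in RNA per cell cannot be told apart.

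**Figure D1:**
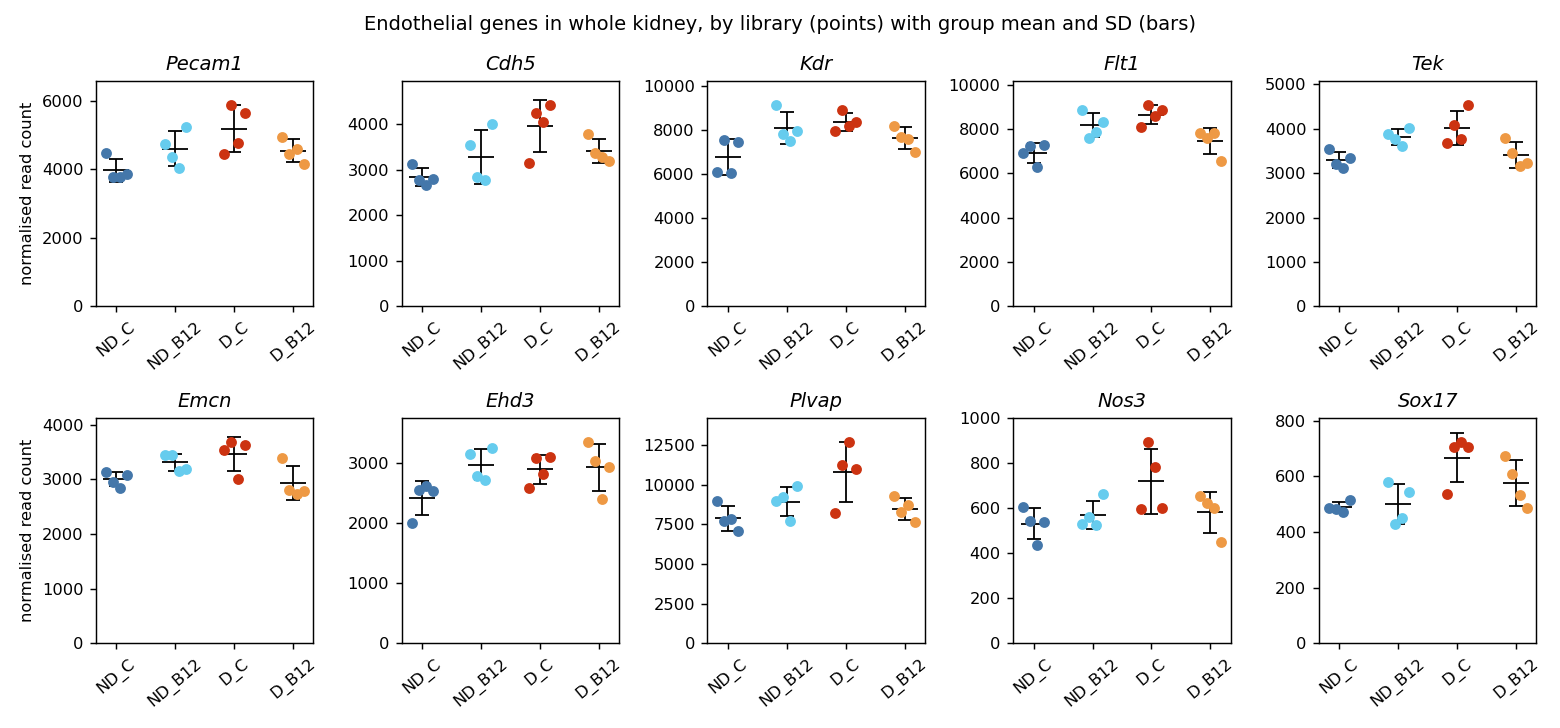
Normalised read counts (y axis, from 0) of the 10 endothelial genes in each labelled group (x axis), with a point per library, a bar at the group mean and whiskers of 1 SD (n = 4). The D_C points of Flt1, from 8076 to 9072, sit above all ND_C points, from 6307 to 7275, while D_C 1 is the lowest D_C point in 9 of the 10 panels.

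The adhesion and junction genes stood among the larger differences. Cdh5, at chr8:104828231-104871143, encodes VE-cadherin, the cadherin of endothelial junctions. Its normalised counts were 3124, 2789, 2660 and 2797 in ND_C 1 to 4 and 3151, 4257, 4057 and 4423 in D_C 1 to 4. In ND_B12 they were 3543, 2845, 2769 and 4001, and in D_B12 3797, 3379, 3288 and 3207. Every D_C library exceeded every ND_C library, D_C 1 by a narrow margin. ND_B12 1, ND_B12 4 and every D_B12 library lay within the D_C range. The log2 fold change of Cdh5 in D_C over ND_C was 0.48 (SE 0.12), which narrowly missed the threshold (adjusted p = 0.0511).

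Pecam1, at chr11:106543689-106641454, encodes the adhesion molecule CD31 of endothelial contacts, platelets and some leukocytes. It measured 4464, 3770, 3777 and 3851 normalised counts in ND_C 1 to 4 and 4437, 5869, 4775 and 5632 in D_C 1 to 4. It measured 4748, 4364, 4045 and 5237 in ND_B12, and 4953, 4452, 4606 and 4148 in D_B12. The D_C and ND_C ranges met because ND_C 1 lay just above D_C 1, and the other 3 D_C libraries exceeded all of ND_C. The log2 fold change was 0.38 (SE 0.098, adjusted p = 0.0551).

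The VEGF receptors differed by less than Cdh5 and Pecam1. Flt1, at chr5:147498414-147662826, had 6902, 7233, 6307 and 7275 normalised counts in ND_C 1 to 4 and 8076, 9072, 8587 and 8846 in D_C 1 to 4. The means of both B12-treated groups lay between, with 8836, 7614, 7861 and 8335 in ND_B12 and 7832, 7599, 7832 and 6566 in D_B12. The D_C libraries formed a tight group above ND_C, whose mean rose from 6929 ± 447 to 8645 ± 428 (SD, n = 4). The log2 fold change was 0.32 (SE 0.070), a 1.25-fold increase (edgeR adjusted p = 0.0408). That call was lost with the date of the label as a term in the fit, where the log2 fold change was 0.37 (adjusted p = 0.158), and without any of ND_C 1, ND_C 2, ND_C 3, ND_B12 2, D_C 2, D_C 3, D_C 4 or D_B12 2 (adjusted p from 0.0511 to 0.119), although the value stayed between 0.28 and 0.35 whichever library was left out.

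Kdr, at chr5:76093487-76139884, encodes VEGFR2, the main signaling receptor for VEGF on endothelium. It had 6105, 7561, 6047 and 7466 normalised counts in ND_C and 7971, 8923, 8206 and 8379 in D_C. In ND_B12 it had 9144, 7817, 7495 and 7965, with the highest value of all 16 libraries in ND_B12 1, and in D_B12 it had 8212, 7714, 7622 and 7000. ND_C fell into 2 lower and 2 higher libraries, all below D_C, and the log2 fold change was 0.30 (SE 0.084, adjusted p = 0.0747).

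Tek, at chr4:94627291-94763224, encodes Tie2, the receptor of the angiopoietins. Its normalised counts were 3539, 3206, 3113 and 3336 in ND_C and 3669, 4091, 3777 and 4530 in D_C. With B12 they were 3880, 3775, 3603 and 4022 in non-diabetic mice, and 3789, 3455, 3156 and 3222 in diabetic mice. ND_C and D_B12 overlapped low and ND_B12 and D_C overlapped high, and ND_C overlapped with neither ND_B12 nor D_C. The log2 fold change of D_C over ND_C was 0.28 (SE 0.074, adjusted p = 0.0591).

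Emcn and Ehd3 had the smallest fitted differences of the 10. Emcn, at chr3:137046794-137138999, encodes the sialomucin endomucin of capillary and venous endothelium. Untreated, its normalised counts ran from 2842 to 3139 in ND_C and from 3008 to 3684 in D_C. With B12 they ran from 3154 to 3448 (ND_B12) and from 2722 to 3395 (D_B12), where D_B12 1 stood apart from the 3 others. The log2 fold change of D_C over ND_C was 0.21 (SE 0.077, adjusted p = 0.162). Ehd3, at chr17:74111129-74139089, encodes an endocytic protein that in the kidney marks glomerular endothelium. Untreated it ran from 2006 to 2615 in ND_C and from 2590 to 3100 in D_C, and with B12 from 2722 to 3259 (ND_B12) and from 2407 to 3357 (D_B12). The lowest of all was ND_C 1. It was the 1 gene of the 10 whose mean was higher in ND_B12 (2980 ± 263) and in D_B12 (2936 ± 394) than in D_C (2901 ± 243), with a log2 fold change of D_C over ND_C of 0.26 (SE 0.10, adjusted p = 0.202).

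Plvap, at chr8:71948674-71964506, encodes the protein of the diaphragms that span endothelial fenestrae, and is carried by peritubular capillaries and veins and is low in mature glomeruli. Its normalised counts were 8968, 7702, 7809 and 7061 in ND_C 1 to 4 and 8198, 11274, 12706 and 11007 in D_C 1 to 4. They were 8956, 9214, 7684 and 9914 in ND_B12, and 9303, 8270, 8698 and 7629 in D_B12. D_C 2, D_C 3 and D_C 4 stood above the other 13 libraries, and D_C 1 lay among ND_C. The log2 fold change was 0.45 (SE 0.12, adjusted p = 0.0565). The gene overlaps Gtpbp3 on the other strand, which averaged 706.5 counts per library against 9203 for Plvap. The methods of the study take strand from intron motifs at alignment, and do not say whether the library preparation kept strand.

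Nos3, at chr5:24569787-24589475, encodes endothelial nitric oxide synthase, and Sox17, at chr1:4561151-4567784, a transcription factor of arterial endothelium. They were the least abundant of the 10. Nos3 had 607, 544, 437 and 539 normalised counts in ND_C and 599, 895, 785 and 600 in D_C, so that 2 of 4 D_C libraries exceeded ND_C (log2 fold change 0.44, SE 0.15, adjusted p = 0.132). It ran from 526 to 663 in ND_B12 and from 449 to 653 in D_B12. Sox17 had 487, 483, 473 and 514 in ND_C and 536, 708, 724 and 704 in D_C, with no overlap and a narrow ND_C group (log2 fold change 0.45, SE 0.13, adjusted p = 0.0747). It ran from 430 to 579 in ND_B12 and from 487 to 673 in D_B12. Both overlap lncRNAs on the other strand, with means of 54.0 (Gm15587, at Nos3) and 18.1 counts (Gm37587, at Sox17). Nos3 also overlaps the protein-coding gene Atg9b on the other strand (mean 18.9 counts). A share of the reads of Nos3 and Sox17 could belong to these overlapping genes.

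**Figure D2:**
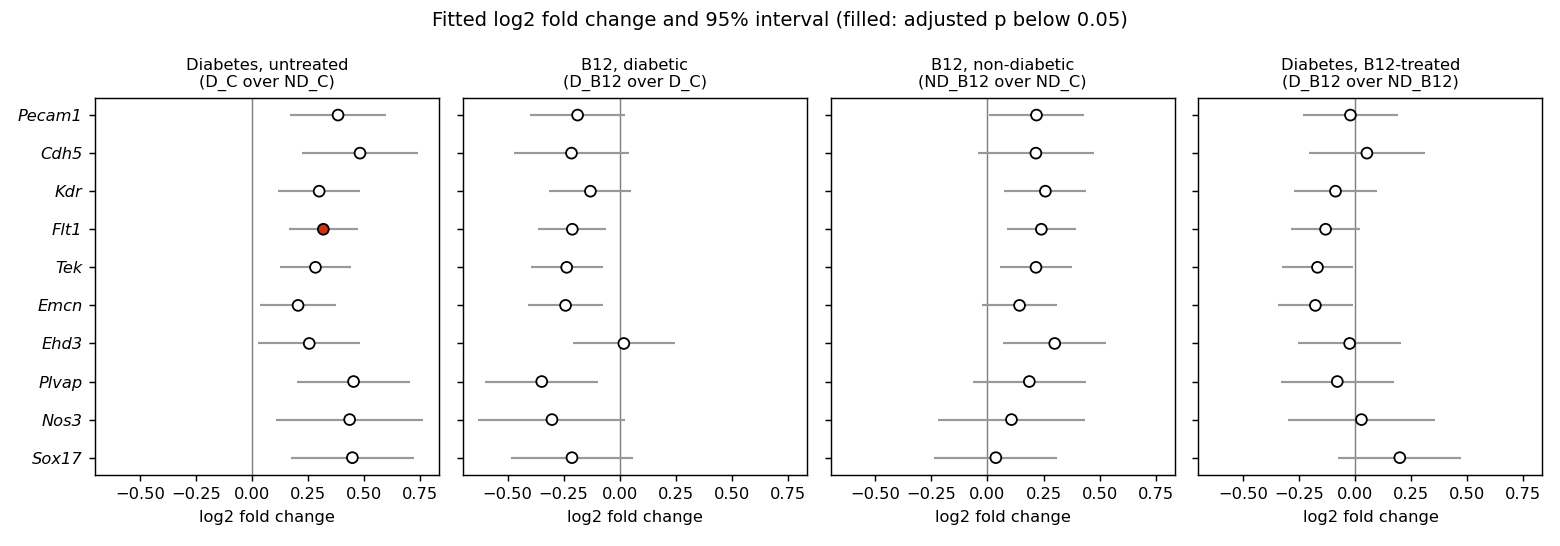
Fitted log2 fold change (x axis) and 95% interval of each of the 10 genes (y axis) in the 4 pairwise comparisons. In D_C over ND_C all 10 points lie above 0, from 0.21 to 0.48, and 1 of them, Flt1, is filled for an adjusted p below 0.05, while no point is filled in the other 3 panels.

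The next question was what B12 did in diabetic kidneys. In D_B12, 9 of the 10 genes had a lower fitted level than in D_C and Ehd3 stood at 0.02 (95% interval from -0.21 to 0.25), with a median log2 difference of -0.21; 50.1% of all genes were below 0. With the label date as a term the median was -0.11 and 0 of the 10 had an unadjusted p below 0.05. None of the 10 passed edgeR's adjusted threshold (smallest adjusted p = 0.178, Tek), nor did any of the 25408 genes tested (0%). DESeq2 called 0 of the 10 and 2.64% of all genes. Tek (-0.24, SE 0.074), Emcn (-0.24, SE 0.077), Flt1 (-0.21, SE 0.070) and Plvap (-0.35, SE 0.12) had an unadjusted p below 0.05, 4 of 10 against 7.21% of all genes in that direction. The D_B12 libraries of Flt1 lay wholly below those of D_C, and the exact permutation test gave p = 0.0286, the smallest that 4 against 4 can give; 3.18% of all genes had groups that did not overlap in that direction. For Cdh5 the difference was -0.21 with a 95% interval from -0.47 to 0.04, and for Nos3 -0.30 with an interval from -0.63 to 0.03, so neither a fall nor an absence of change was shown.

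In non-diabetic kidneys, all 10 genes had a higher fitted level in ND_B12 than in ND_C, with a median of 0.22, where 50.4% of all genes were above 0. None passed the adjusted threshold (smallest adjusted p = 0.570, Flt1), and 0 of 25408 genes did (0%); DESeq2 called 0 of the 10 and 0.0236% of all genes. Flt1 (0.24, SE 0.070), Kdr (0.26, SE 0.084), Tek (0.22, SE 0.074), Ehd3 (0.30, SE 0.10) and Pecam1 (0.22, SE 0.098) had an unadjusted p below 0.05, 5 of 10 against 3.67% of all genes in that direction. For Emcn, Tek, Flt1 and Ehd3 the 2 groups did not overlap, against 2.65% of all genes. Within a single label date, ND_B12 1 could be set against ND_C 4, and 9 of the 10 genes were higher in ND_B12 1 with a median difference of 0.28 on the log2 scale. This is 1 library against 1, and the share over all genes was not taken for the pair. The study's table puts both libraries in the untreated non-diabetic group, so by that source the pair holds no B12 contrast. With the 12 libraries whose group mates the table also keeps together (without ND_C 3, ND_B12 1, ND_B12 4 and D_C 1), the median was 0.11 and 7 of the 10 were above 0.

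Between the diabetic and non-diabetic mice given B12, 3 genes had values above 0 and 7 below, with a median of -0.05, where 49.5% of all genes were below 0. None of the 10 was called (smallest adjusted p = 0.251, Emcn), where 0.823% of all genes were. DESeq2 called 0 of the 10 and 4.68% of all genes, and Emcn (-0.18, SE 0.077) and Tek (-0.17, SE 0.074) had an unadjusted p below 0.05, against 9.2% of all genes in that direction. The largest value above 0 was that of Sox17 (0.20, SE 0.13). With the label date as a term the median was 0.08, with 7 values above 0 and 0 genes at an unadjusted p below 0.05. D_B12 and ND_B12 overlapped for all 10 genes, while 5.1% of all genes were higher and 6.57% lower without overlap.

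The test of whether diabetes acted differently with B12 is the interaction. Its values were below 0 for all 10 genes, with a median of -0.41, where 50.3% of all genes were below 0, and 7 of 10 had an unadjusted p below 0.05, against 8.1% of all genes in that direction. None passed the adjusted threshold, where 0% of all genes did. The smallest adjusted p-values were those of Flt1 (-0.45, SE 0.099, adjusted p = 0.0618) and Tek (-0.45, SE 0.10, adjusted p = 0.0701), and DESeq2 called 5 of the 10 and 3.71% of all genes. Without D_C 1, edgeR called 3 of the 10 and 1.04% of all genes. Over all genes it called 2.96% with the label date as a term and 0.579% with the replicate number as a block. The 4 pairwise comparisons and the interaction share groups, so their values are not independent of each other.

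Averaged over both treatments, all 10 genes were above 0 in diabetic mice, with a median of 0.15, where 51.7% of all genes were above 0. None was called by edgeR (smallest adjusted p = 0.0598, Sox17 at 0.32, SE 0.089), where 3.02% of all genes were, and 5 had an unadjusted p below 0.05, against 8.84% of all genes. DESeq2 called 2 of the 10 and 7.23% of all genes. Of the 10, edgeR called 2 without ND_B12 4 (5.37% of all genes), 3 without D_C 1 (6.64%) and 1 without D_B12 4 (2.59%). With the label date as a term it called 0 of all genes, and the median of the 10 was 0.23. Averaged over both genotypes, B12 gave 5 values above 0 and 5 below, with 0 called (0% of all genes) and 1, Ehd3, at an unadjusted p below 0.05 (0.16, SE 0.074), against 2.01% of all genes. DESeq2 called 0 of the 10 there and 0.0236% of all genes.

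Several libraries ranked alike in most of the 10 genes. The group mean was highest in D_C for 9 of the 10 genes and lowest in ND_C for 9, the exceptions being Ehd3 and Emcn. D_C 1 was the lowest D_C library for 9 genes, D_B12 1 the highest D_B12 library for 9, and ND_B12 3 the lowest ND_B12 library for 8. For Cdh5, Plvap and Sox17 the 3 highest of all libraries were D_C 2, D_C 3 and D_C 4. On the mean log2 CPM of the 10 genes the highest libraries were D_C 2 (5.58), D_C 4 (5.52), D_C 3 (5.48) and ND_B12 4 (5.43), which are the 4 that the study's table groups together. D_B12 1 came next at 5.42, and the lowest was ND_C 3 at 5.03.

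**Figure D3:**
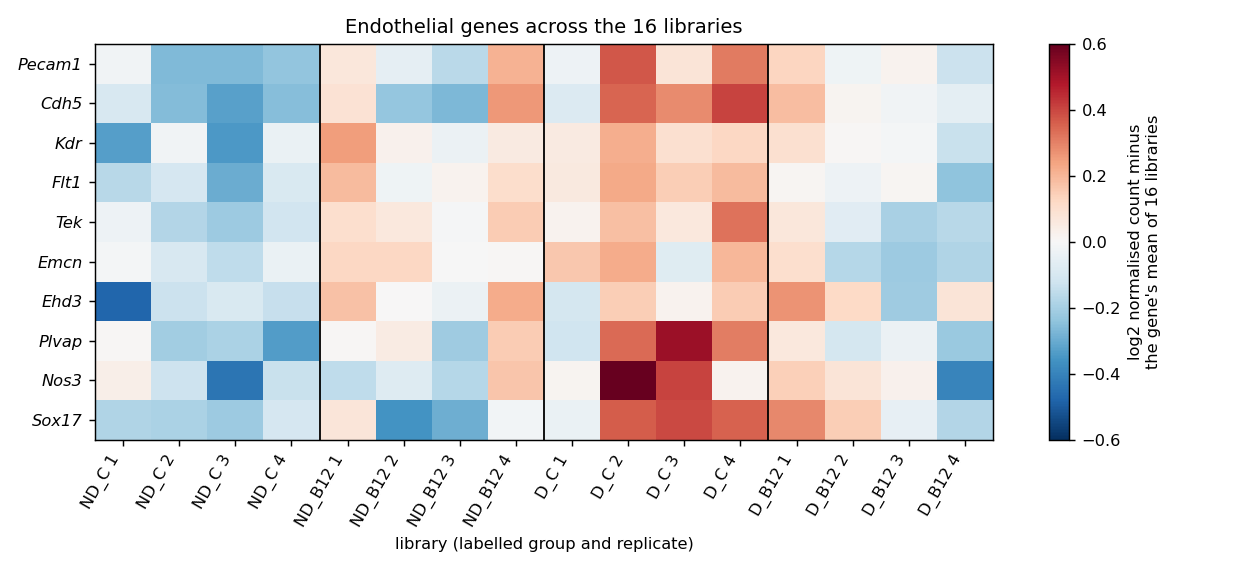
Log2 normalised count of each of the 10 genes (rows) in each library (columns, in label order), as the difference from that gene's mean over the 16 libraries (color, red above and blue below). D_C 2, D_C 3 and D_C 4 are red in most rows and ND_C is blue in most, while D_C 1 is pale.

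Deviations of single libraries from their group mean were compared with the mean of 20 other pan-endothelial genes, as 10 of 19 relations tested by permutation within groups. Of the 10, Pecam1, Cdh5, Tek, Plvap, Nos3 and Sox17 passed an adjusted p of 0.05 (6 by Pearson and 6 by Spearman), and the other 4 did not. Cdh5 is given as an example that passed (Pearson r = 0.87, permutation p = 0.00014, adjusted p = 0.00133; Spearman rho = 0.94, permutation p = 0.00018, adjusted p = 0.00171; r = 0.83 without the 2 libraries farthest from the median). Kdr had the lowest r (r = 0.34, permutation p = 0.191, adjusted p = 0.278; rho = 0.29, permutation p = 0.297, adjusted p = 0.403; r = 0.44 without the 2 farthest). Among the 10 genes, the closest pair was Pecam1 and Cdh5 (r = 0.89) and the least alike was Emcn and Plvap (r = 0.02), over 16 libraries that share depth and tissue makeup. Of 15370 other genes with a mean of at least 100 counts, those most like the mean of the 10 over the 16 libraries were Fstl1 (r = 0.938), Dag1 (0.920), Slc6a12 (0.917), Adgrf5 (0.908) and Map1b (0.906), also as deviations from group means. Deviations and permutations both used the labelled groups. If the study's table is right, differences between its groups remain in the deviations and could raise these correlations, which was not tested.

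Each gene was also set against the mean of those 20 other endothelial genes. Of 40 exact permutation tests (10 genes in 4 comparisons), 0 passed after adjustment (smallest adjusted p = 0.571), and 1 had an unadjusted p below 0.05. With 4 against 4 libraries the smallest exact p is 0.0286, so a gene could not pass by itself after adjustment over 40 tests. These tests therefore cannot decide whether a gene differed from that mean. In D_C over ND_C the relative differences ran from -0.18 to 0.09 on the log2 scale.

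The other pan-endothelial genes likewise had higher fitted levels in D_C. All 20 had values above 0 in D_C over ND_C, with a median of 0.37, and 8 rose by edgeR's adjusted p. That count was 0 without ND_C 2, ND_C 3, D_C 2 or D_C 4, 1 without D_C 3, 3 without ND_C 1 or ND_B12 2 and 4 without D_B12 2, and 0 with the label date as a term, with the median between 0.33 and 0.43 when 1 library was left out. Among the 8 were Mmrn2, an extracellular matrix protein of vessels (0.66, SE 0.13, adjusted p = 0.0340), Eng, a co-receptor for TGF-β (0.47, SE 0.10, adjusted p = 0.0377), Ptprb, the phosphatase VE-PTP that acts on Tie2 (0.46, SE 0.089, adjusted p = 0.0333), and Egfl7, a secreted protein of endothelium (0.39, SE 0.080, adjusted p = 0.0340). Read against the same 0.937% of all genes, this list and the 10 genes were chosen with earlier results of these data in view. In D_B12 over D_C, 18 of the 20 were below 0 with a median of -0.25, and 0 were called, with 8 at an unadjusted p below 0.05.

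Ligands and co-receptors of the same pathways did not move together. Of 13 such genes, 8 were above 0 and 5 below in D_C over ND_C, with a median of 0.15, and 1 rose, Flt4, the receptor for VEGF-C on lymphatic and fenestrated endothelium (0.50, SE 0.079, adjusted p = 0.0227). The call was lost without ND_C 2, ND_C 3 or D_C 4, or with the label date as a term (adjusted p = 0.0985). The mean of Flt4 was 1820 ± 59.3 normalised counts in D_C and 1289 ± 87.8 in ND_C. The ligands below were picked for their role after values had been seen. Vegfa, the ligand of Kdr and Flt1, had 11833 ± 1474 counts in D_C and 13582 ± 491 in ND_C (log2 fold change -0.20, SE 0.086, adjusted p = 0.226). Angpt1, the activating ligand of Tek, stood at -0.15 (SE 0.16, adjusted p = 0.667), and Angpt2, its context-dependent antagonist, at 0.63 (SE 0.26, adjusted p = 0.213).

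Of 11 genes around nitric oxide, 8 were above 0 and 3 below with a median of 0.04, and none was called in that comparison, with 2 of 11 at an unadjusted p below 0.05, near the 18.6% of all genes in either direction. Arg2, an arginase that competes with Nos3 for arginine, rose in diabetic mice averaged over treatments (0.70, SE 0.16, adjusted p = 0.0331), a call lost with the label date as a term (adjusted p = 0.689) and in 10 of 16 fits that left out 1 library (all but those without ND_C 1, ND_C 4, ND_B12 1, ND_B12 4, D_C 1 or D_B12 4). Of 10 arterial genes, 6 were above 0 in D_C over ND_C, and Notch4, a Notch receptor of endothelium, rose (0.55, SE 0.10, adjusted p = 0.0284). Of 6 tested venous and peritubular genes, 3 were above 0, and Ephb4, the venous receptor for ephrin-B2, rose (0.39, SE 0.066, adjusted p = 0.0245). Both calls were lost with the label date as a term (adjusted p = 0.330 for Notch4 and 0.167 for Ephb4) and without ND_C 2, ND_C 3 or D_C 4, that of Notch4 also without ND_C 1 and that of Ephb4 also without D_C 2.

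Among 8 other genes of glomerular endothelium, 6 were above 0 with a median of 0.34 and none was called, with 2 of 8 at an unadjusted p below 0.05, against the same 18.6% of all genes. Named as the smallest p-values of the list, these were Plat, tissue plasminogen activator (0.65, SE 0.17, adjusted p = 0.0583), and Lpl, lipoprotein lipase, which adipocytes also make (-1.04, SE 0.33, adjusted p = 0.103). The summed normalised counts of the 8 genes went the other way from most single genes. They ran from 46415 to 67653 in ND_C (mean 59682) and from 26283 to 53633 in D_C (mean 34826). Such a sum weighs the most abundant genes most. All 6 lymphatic genes were above 0 with a median of 0.24 and none called, with Prox1 at 0.42 (SE 0.19, adjusted p = 0.238) and Reln at 0.14 (SE 0.26, adjusted p = 0.834). Of 7 adhesion and activation genes, 4 were above 0 with a median of 0.04, and Vcam1, an adhesion molecule for leukocytes, fell in diabetic mice averaged over treatments (-0.35, SE 0.083, adjusted p = 0.0358). That call was lost with the label date as a term (-0.12, adjusted p = 0.843) and in 12 of 16 fits without 1 library (all but those without ND_C 2, ND_C 4, ND_B12 4 or D_C 1).

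**Figure D4:**
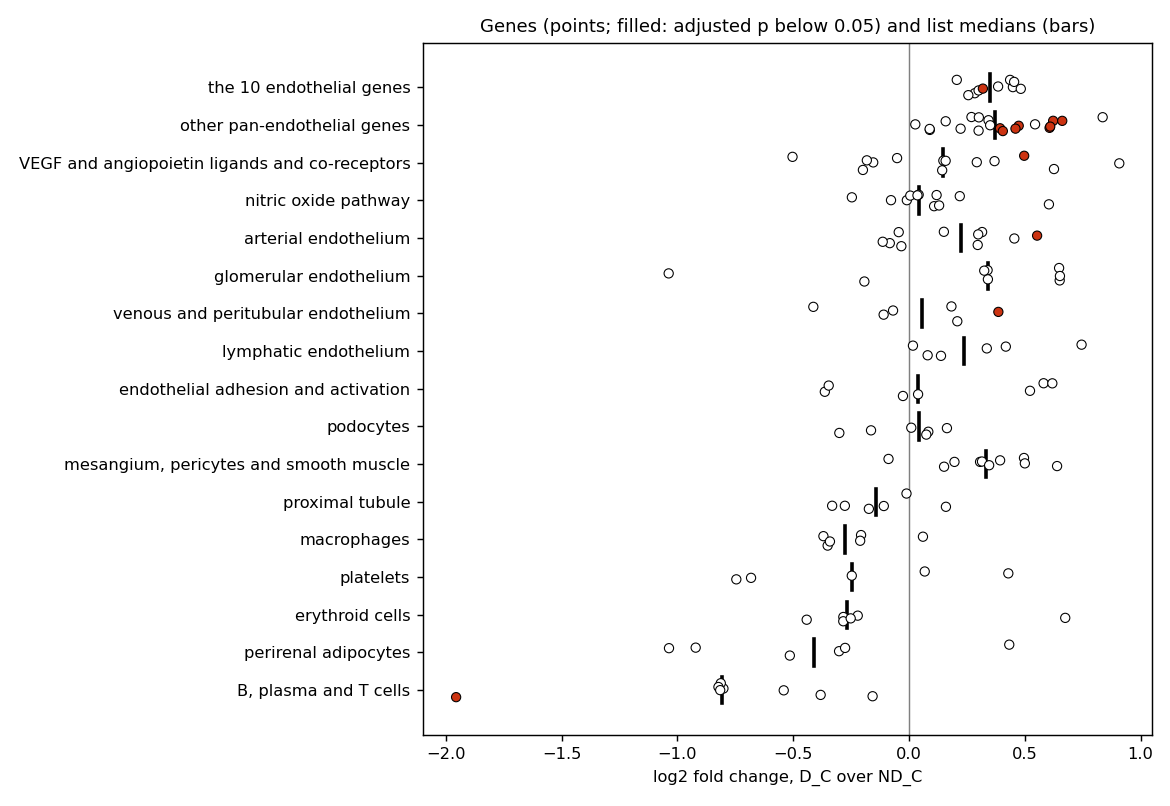
Log2 fold change of D_C over ND_C (x axis) for each gene of the endothelial lists and of lists for other cell types (y axis), with a point per gene, filled for an adjusted p below 0.05, and a bar at the median. Points of the 10 endothelial genes and of the other pan-endothelial genes all lie above 0, with medians of 0.35 and 0.37, and the list of B, plasma and T cells lies wholly below 0.

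Markers of other cells also had values away from 0, and their part in the endothelial differences was not tested. In D_C over ND_C, 9 of 10 genes of mesangium, pericytes and smooth muscle were above 0 (median 0.33), 4 of 6 podocyte genes (median 0.04) and 1 of 6 proximal tubule genes (median -0.14), with none called. Summed normalised counts ran from 18293 to 22273 in ND_C and from 23002 to 26941 in D_C for the first list, from 26129 to 28689 and from 26166 to 29259 for podocytes, and from 994414 to 1076230 and from 852107 to 1090025 for proximal tubule. Tagln, a smooth muscle actin-binding protein (0.41, SE 0.11, adjusted p = 0.0476), and Slc34a1, the phosphate carrier of proximal tubule (-0.25, SE 0.048, adjusted p = 0.0178), passed in diabetic mice averaged over treatments, the first higher and the second lower. Both calls were lost with the label date as a term (adjusted p = 0.570 and 0.447), that of Tagln also in 13 of 16 fits without 1 library (all but those without ND_B12 4, D_C 1 or D_B12 4) and that of Slc34a1 in 0 of 16. As deviations from group means, the mean of the 10 genes followed that of the mesangial list with r = 0.68 (0.61 without the 2 farthest libraries). This was the highest r among the lists of other cells, which otherwise ran from -0.38 (platelets) to 0.39 (podocytes). Without the 2 farthest libraries the r of podocytes was 0.73. These values are given as a description, over 16 libraries that share depth and tissue makeup, and the group means are those of the labels.

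Blood and immune markers were lower or spread. Macrophage genes were below 0 in 5 of 6 (sums from 5867 to 6814 in ND_C and from 4702 to 5813 in D_C), with C1qa, a complement component, lower in diabetic mice averaged over treatments (-0.47, SE 0.12, adjusted p = 0.0382), a call lost with the label date as a term (adjusted p = 0.633) and in 13 of 16 fits without 1 library (all but those without ND_B12 4, D_C 1 or D_B12 2). Genes of B, plasma and T cells were below 0 in 8 of 8 (sums from 1141 to 3867 in ND_C and from 497 to 1082 in D_C), and Jchain, the joining chain of secreted antibodies, fell (-1.96, SE 0.46, adjusted p = 0.0468), a call lost with the label date as a term (adjusted p = 0.335) and in 11 of 16 fits without 1 library (all but those without ND_C 4, ND_B12 1, ND_B12 3, ND_B12 4 or D_C 1). For diabetes averaged over treatments, Jchain was also called, and that call was lost in 0 of 16 fits without 1 library (adjusted p from 0.00298 to 0.0302). It was lost with the label date as a term (adjusted p = 0.362). In B12-treated mice its call was lost in 10 of 16 such fits. Platelet genes, which matter because platelets also carry Pecam1, were below 0 in 3 of 5 tested, with sums from 403 to 530 in ND_C and from 423 to 490 in D_C. Erythroid genes were below 0 in 5 of 6 (sums from 26731 to 35679 and from 25869 to 28470), and perirenal adipocyte genes in 5 of 6 (sums from 23.9 to 7200 and from 25.8 to 5202). No list held a gene at 0 in every library.

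Both Flt1 forms had higher means in D_C than in ND_C, and their ratio did not detectably differ. Flt1-202 stood at 61.7 ± 5.37 CPM in untreated non-diabetic mice and 78.7 ± 1.16 in untreated diabetic mice, and at 73.2 ± 6.18 and 67.7 ± 5.89 in their treated counterparts (SD, n = 4). Flt1-203 stood at 23.5 ± 1.08 and 30.9 ± 2.32 CPM untreated, and at 26.2 ± 1.10 and 25.6 ± 2.78 treated. The soluble form, whose read-through sequence is printed above, took 27.7% ± 1.18 of the counts of both forms in ND_C against 28.2% ± 1.61 in D_C. With B12 the shares were 26.4% ± 2.19 (ND_B12) and 27.5% ± 1.62 (D_B12).

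In single libraries the share ran from 23.2% in ND_B12 1 to 29.6% in D_C 4, and the 4 groups overlapped. The 4 exact permutation tests gave p-values from 0.400 to 0.629 (adjusted p = 0.629 for each). The difference between D_C and ND_C was 0.54 percentage points. These transcript counts are StringTie's estimates from reads of 50 bases, which mostly cannot be assigned to a form from the shared exons.

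**Figure D5:**
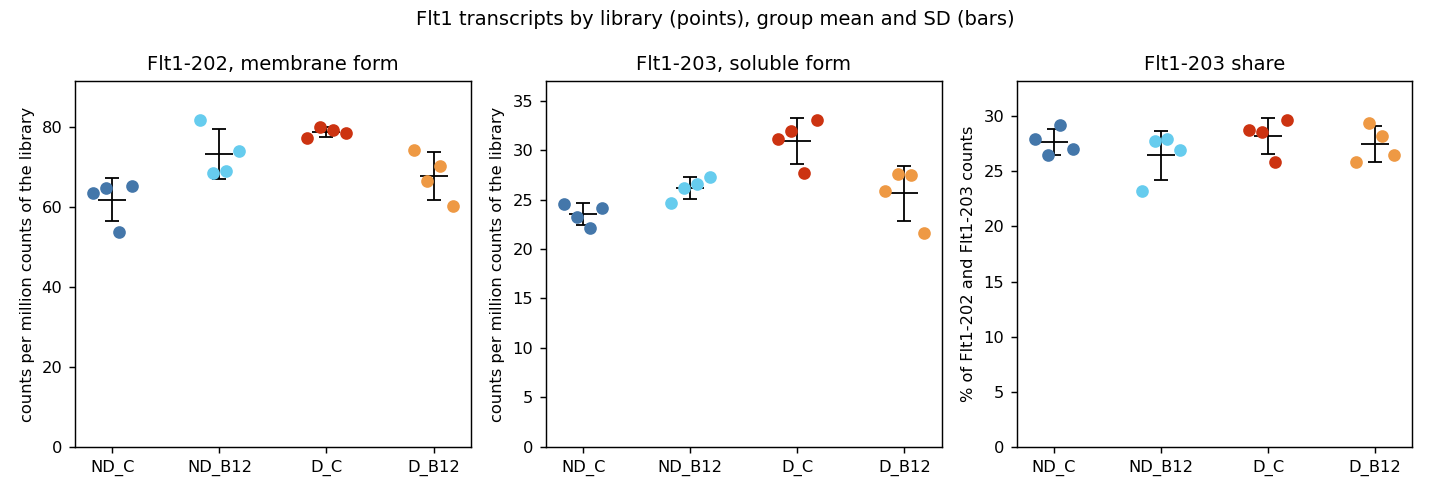
CPM of the membrane transcript Flt1-202 (left), of the soluble transcript Flt1-203 (middle) and the share of Flt1-203 in both (right, percent) for each library (points) with the group mean and 1 SD (n = 4). Both forms are highest on average in D_C, and the share stays near 27% in all 4 groups.

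Other genes of the 10 also had more than 1 annotated transcript with counts. Emcn-202, the longer coding transcript, took 27.6% ± 1.55 of Emcn transcript counts in ND_C and 37.8% ± 10.2 in D_C. With B12 it took 27.2% ± 2.73 (ND_B12) and 38.7% ± 7.81 (D_B12). The D_C range, from 25.8% to 50.6%, covered that of ND_C, from 25.8% to 29.0%, and this share was not tested. For Pecam1-202 the share ran from 39.7% to 66.2% in ND_C and from 49.1% to 75.4% in D_C. With B12 it ran from 35.5% to 55.2% in ND_B12 and from 67.6% to 76.8% in D_B12, whose libraries lay above all of ND_B12 and ND_C, and this was not tested. For Sox17-201 it ran from 0% to 90.1% within ND_C alone, so the transcript estimates of Sox17 carry no usable comparison, while its gene counts lay within a narrow range in ND_C.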

How the data were processed

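RNA of 16 whole kidneys was sequenced in paired reads of 50 bases. The authors aligned reads to GRCm39 with STAR and GENCODE vM35 and deposited StringTie estimated counts per gene and per transcript, as whole numbers. The submitters' processing notes also name bcl2fastq 2.20.0, DESeq2 and limma. Table columns were matched to samples by the number that ends each library name in the labels.

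Members and lists were chosen with earlier results of these data known. Of 57186 genes, 25408 with at least 100 counts in total were tested with edgeR 4.0.16 (R 4.3.3), by TMM normalization and quasi-likelihood tests over all 16 libraries with a mean per labelled group, and Benjamini-Hochberg adjustment over all genes. Normalised counts are the deposited counts divided by DESeq2's size factors. DESeq2 1.42.0 and other settings were alternatives. Single values were compared by two-sided exact permutation tests, and correlations by 100000 permutations within groups. From each list, genes past the threshold in a comparison were named, at most the 4 of smallest p, otherwise the 2 of smallest unadjusted p. Positions follow GENCODE vM39. The labels call the samples biological replicates. Both tools were run on simulated counts for D_C over ND_C, with 200 of 25234 genes changed by 2-fold. There edgeR recovered 175 of the changed genes, and 5.91% of its calls were false. DESeq2 recovered 184, and 12.0% of its calls were false. The larger numbers of DESeq2 calls above are to be read with that higher share of false calls.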

Additional observations from a re-analysis of the deposited data

Results flagged for a closer look

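In 4 of the 44 groups of 4 libraries examined, 1 library lay far from the other 3 by Dixon's criterion, which chance alone meets in about 1 of 20 groups. Pecam1 was high in ND_C 1 (4464 normalised counts) and Ehd3 was low in the same library (2006). Emcn was high in D_B12 1 (3395), and Sox17 was low in D_C 1 (536).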

How the results depend on the processing

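In D_C over ND_C the 10 genes stayed above 0 under every alternative run, but the number past edgeR's adjusted threshold, 1 as reported, was 7 with DESeq2, 2 with upper-quartile normalization and 5 with the 12 libraries that labels and table keep together, a choice made after seeing the data. It was 0 with genes of at least 1 count, with the label date as a term, with the compared groups alone and with the replicate block (Flt1 adjusted p = 0.0581), and from 0 to 6 when 1 library was left out (6 without D_C 1, 4 without ND_B12 4, 3 without D_B12 1). Same-numbered libraries mostly did not deviate together (4 of 24 pairs with r above 0.1). Their median r was 0.011, against -0.0069 for other pairs. Low correlations of deviations from labelled group means cannot decide whether the numbers pair the libraries. Averaged over treatments, diabetes gave 2 calls with DESeq2, 1 with upper-quartile normalization, 3 with the 12 libraries and from 0 to 3 leaving out 1 library, and the interaction gave 5 with DESeq2 and from 0 to 3 leaving out 1 library. Among all genes, calls in D_C over ND_C numbered 423, with 1637 by DESeq2, 63 with genes of at least 1 count, 2 with the label date, 269 with the block, 182 with the compared groups alone, 1323 with the 12 libraries and from 0 to 1551 leaving out 1 library. The cause of these changes was not tested. For the 12 libraries, labels and table agree on which are group mates, but not on every group name. The table names D_C 2, D_C 3 and D_C 4 as B12-treated diabetic and the D_B12 libraries as untreated diabetic. By its names, D_C over ND_C would set B12-treated diabetic against untreated non-diabetic kidneys, and B12 in diabetic mice would change sign.

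Directions reversed for small values. In D_B12 over ND_B12, Pecam1 became 0.0100 (upper quartile), 0.11 (label date) and 0.11 (12 libraries), and Ehd3 became 0.0062, 0.10 and 0.088 in the same order. With the label date Kdr became 0.047 and Emcn 0.13, and Plvap became 0.0024 with the 12 libraries. With those 12 libraries, B12 in non-diabetic mice gave -0.044 for Cdh5, -0.046 for Nos3 and -0.17 for Sox17, B12 in diabetic mice gave -0.032 for Ehd3, and averaged diabetes gave -0.0019 for Emcn. Averaged over genotypes, B12 gave -0.094 for Pecam1, -0.18 for Cdh5, -0.014 for Kdr and -0.061 for Flt1 with the 12 libraries. There Cdh5 was also -0.0028 with DESeq2, -0.00404 with upper-quartile normalization, -0.0015 with genes of at least 1 count and -0.0034 with the block, while Tek became 0.034, Emcn 0.086 and Nos3 0.057 with the label date.

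Leaving out 1 library, the values that crossed 0 in D_B12 over ND_B12 ran from -0.079 to 0.049 for Pecam1, from -0.023 to 0.16 for Cdh5, from -0.082 to 0.058 for Ehd3 and from -0.019 to 0.13 for Nos3. Under B12 they ran from -0.037 to 0.097 for Sox17 in non-diabetic and from -0.039 to 0.10 for Ehd3 in diabetic mice. Averaged over treatments Emcn ran from -0.022 to 0.049, and averaged over genotypes Pecam1 ran from -0.020 to 0.049, Cdh5 from -0.055 to 0.038, Flt1 from -0.00623 to 0.044 and Tek from -0.0348 to 0.023. The difference of the soluble Flt1 share in B12-treated mice ran from -0.044 to 1.57 percentage points. The single relative test with an unadjusted p below 0.05 cannot be repeated with 3 against 4 libraries, where the smallest exact p is above 0.05 (0 such tests).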
